A study of Mus musculus with 6 samples.

Results

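The immunoglobulin variable (V) segments described here are the genes named Ighv, Igkv or Iglv in a table of 21847 mouse genes whose estimated counts, summed over 6 libraries, came to at least 60. Of 199 V segments in the table, 172 met that sum. They are 83 of 97 heavy chain segments (Ighv) on chromosome 12, 86 of 99 kappa light chain segments (Igkv) on chromosome 6 and 3 of 3 lambda light chain segments (Iglv) on chromosome 16. The deposited table left the symbols of all 172 blank, so they were filled from the GENCODE M21 annotation by Ensembl identifier. Just inside the sum were Igkv1-132 with 65 counts, Ighv3-3 and Igkv1-99 with 67 each and Ighv8-4 with 75. Just outside were Ighv15-2 with 56, Ighv7-2 with 55 and Ighv8-14 with 51.

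The libraries came from mouse spleen cells depleted of T cells and cultured for 3 days on mesenchymal stromal cells (MSCs), an adherent support cell grown from human cord tissue. These had been loaded with Qtracker, a fluorescent nanocrystal label. The 3 Qpos libraries hold sorted cells that carried the label, recorded as having engulfed MSCs, and the 3 Qneg libraries hold sorted cells without it. The study asks how engulfment of MSCs changes the RNA of macrophages. Both groups were sorted as CD11b positive. The labels give the second gate as Ly6G negative in one place and Ly6C negative in another. Mouse strain, age and the number of animals are not given in the sources used here, and both groups had shared a dish with human cells.

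Each B cell joins one V segment to a diversity or joining (J) segment and so carries its own choice of V at the heavy chain locus and at a light chain locus. Before joining, a V segment gives little spliced RNA. After joining it is read from its own promoter together with the constant region, at a high rate in B cells and a far higher one in plasma cells. Macrophages do not rearrange these loci, so V segment RNA is a product of B lineage cells, and its makeup reflects which V segments their receptors use.

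The printed stretches show what the counts have to tell apart. They come from the GENCODE M21 reference transcripts, not from reads of these libraries. The 3′ ends of the coding sequences of segments that lead a library or shift in usage are given first, with the codon of the second conserved cysteine, which opens the antigen-contacting CDR3 loop, in capitals.
Ighv1-80: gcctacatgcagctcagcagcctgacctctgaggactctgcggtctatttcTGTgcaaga
Ighv1-26: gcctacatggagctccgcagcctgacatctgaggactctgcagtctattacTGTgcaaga
Ighv11-2: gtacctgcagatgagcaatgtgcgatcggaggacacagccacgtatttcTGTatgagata
Igkv3-5: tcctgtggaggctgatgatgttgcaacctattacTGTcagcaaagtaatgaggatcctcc
Igkv6-23: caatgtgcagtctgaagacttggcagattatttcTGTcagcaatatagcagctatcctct
Igkv14-126: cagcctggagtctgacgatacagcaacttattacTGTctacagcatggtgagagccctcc
Iglv1: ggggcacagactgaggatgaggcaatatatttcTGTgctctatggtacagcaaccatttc

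In mm10 coordinates, on the minus strand, Ighv1-80 lies at chr12:115912344-115912776, Ighv1-26 at chr12:114788372-114788805 and Ighv11-2 at chr12:114048241-114048812. Igkv3-5 lies at chr6:70663275-70663895 and Igkv14-126 at chr6:67896172-67896642, both on the plus strand. Igkv6-23 lies at chr6:70260409-70260955 and Iglv1 at chr16:19085017-19085500, both on the minus strand.

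Many members are close copies of one another. The nearest other member shared a median of 94.5% of aligned transcript bases, from 60.8% to 98.9%, and 6 members had a neighbour at 98% or more. A median of 54.5% of the 31-base words of a member were unique to it, and 74 of 172 members had fewer than 50% such words. Some shared words appear to lie in V segments outside the 172. Igkv17-127, for one, had 35.9% unique words, though its nearest member shared only 67.4% of bases. Near copies outside the 172 do not enter the identity values given here. The closest pair, Ighv11-2 and Ighv11-1, had 98.9% identity with 4 mismatches, of which 2 fall in the first 150 coding bases and are in capitals here.
Ighv11-2: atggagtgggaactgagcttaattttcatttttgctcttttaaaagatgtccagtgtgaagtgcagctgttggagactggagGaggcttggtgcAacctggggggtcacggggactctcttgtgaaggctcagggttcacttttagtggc
Ighv11-1: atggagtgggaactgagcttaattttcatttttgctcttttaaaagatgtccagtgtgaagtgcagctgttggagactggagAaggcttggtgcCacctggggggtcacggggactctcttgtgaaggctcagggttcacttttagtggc

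Igkv3-5 and Igkv3-10 had 98.3% identity with 6 mismatches, of which 5 lie between coding positions 195 and 344 and are in capitals here.
Igkv3-5: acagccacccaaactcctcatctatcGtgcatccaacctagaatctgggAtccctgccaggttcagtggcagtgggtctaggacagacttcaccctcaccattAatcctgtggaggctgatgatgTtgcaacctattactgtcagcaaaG
Igkv3-10: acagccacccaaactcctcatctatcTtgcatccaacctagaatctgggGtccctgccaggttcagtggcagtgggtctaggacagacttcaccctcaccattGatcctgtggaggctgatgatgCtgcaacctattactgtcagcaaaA

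The split of reads between such copies was the authors' estimate, and rearranged V genes also carry somatic mutations. Values of single segments with a near-identical copy are therefore uncertain, and sums over a locus are less exposed to it.

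Libraries totalled 33943090 to 55506993 estimated counts. The series' design calls the replicates biological and paired, without stating whether each had its own animal. Replicate 1 stood apart from replicates 2 and 3 in both groups, so a p-value reflects no more than the spread among these 6 libraries, and results are given with and without it where it matters. Macrophage markers from a fixed list of 10 summed to 30300 to 40340 CPM (counts on a common, TMM-scaled library total) in the Qpos libraries. In Qneg they summed to 15470 and 15300 CPM in replicates 2 and 3 and to 1292 CPM in replicate 1, and of the 10 markers 6 were higher in Qpos and 0 lower. Neutrophil markers summed to 1197 to 1429 CPM in Qpos and to 2383, 63990 and 64200 CPM in Qneg replicates 1, 2 and 3. Of these 8 markers 7 were called lower in Qpos. Mmp8, which did not pass (adjusted p = 0.572 by edgeR), made up most of the Qpos sums, at 1003, 693.9 and 784.7 CPM. Lyz2, at 11500 and 11430 CPM, made up most of the macrophage sums of Qneg replicates 2 and 3. The 6 macrophage markers called were Adgre1, Cd68, Mertk, C1qa, C1qb and C1qc, each lower in all 3 Qneg libraries than in any Qpos library. Cd68 had 2334, 2022 and 2009 CPM in Qpos, against 55.9, 163.2 and 169.5 CPM in Qneg. Lyz2, Csf1r, Fcgr1 and Itgam did not pass. All 10 were lowest in Qneg replicate 1. Itgam, which encodes CD11b, the marker of the sort, had 2715, 1821 and 1839 CPM in Qpos, against 259.2, 2267 and 2210 CPM in Qneg replicates 1, 2 and 3. Its RNA was therefore low in Qneg replicate 1, the library with the highest V counts.

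V segment RNA of each of the 3 loci was lower in Qpos than in Qneg. Ighv segments together held 3234, 3919 and 3346 counts in Qpos replicates 1, 2 and 3, against 95427, 58013 and 60886 in Qneg. Igkv segments held 4094, 5443 and 4632 counts in Qpos, against 118252, 73537 and 79164 in Qneg. The Iglv segments held 274, 508 and 496 counts in Qpos, against 8670, 6524 and 7002 in Qneg. At each locus the highest Qpos library lay far below the lowest Qneg library, and Qneg replicate 1 was the highest of the 6.

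Scaled for depth, Ighv averaged 78.7 ± 7.39 CPM in Qpos and 1597 ± 508.9 CPM in Qneg (SD, n = 3 each), a mean log2 difference of -4.30. Igkv averaged 105.7 ± 6.79 CPM in Qpos and 2018 ± 597.6 CPM in Qneg, a difference of -4.22. Iglv averaged 9.36 ± 1.84 CPM in Qpos and 164.9 ± 29.1 CPM in Qneg, a difference of -4.15. An exact two-sided permutation test of the 6 libraries gave p = 0.1 at each locus, the smallest value that 3 against 3 can give. The sizes of the 3 differences lay close together, and by pair they were 25.6-fold, 16.3-fold and 18.5-fold lower for Ighv in replicates 1, 2 and 3. The pairs of Igkv were 25.0-fold, 14.8-fold and 17.3-fold lower, and those of Iglv 27.4-fold, 14.1-fold and 14.3-fold lower. V segments made up 0.0179%, 0.0178% and 0.0158% of all counts in Qpos replicates 1, 2 and 3, against 0.656%, 0.327% and 0.334% in Qneg. In bulk libraries, fewer cells of a type and less RNA per cell cannot be told apart.

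**Figure D1:**
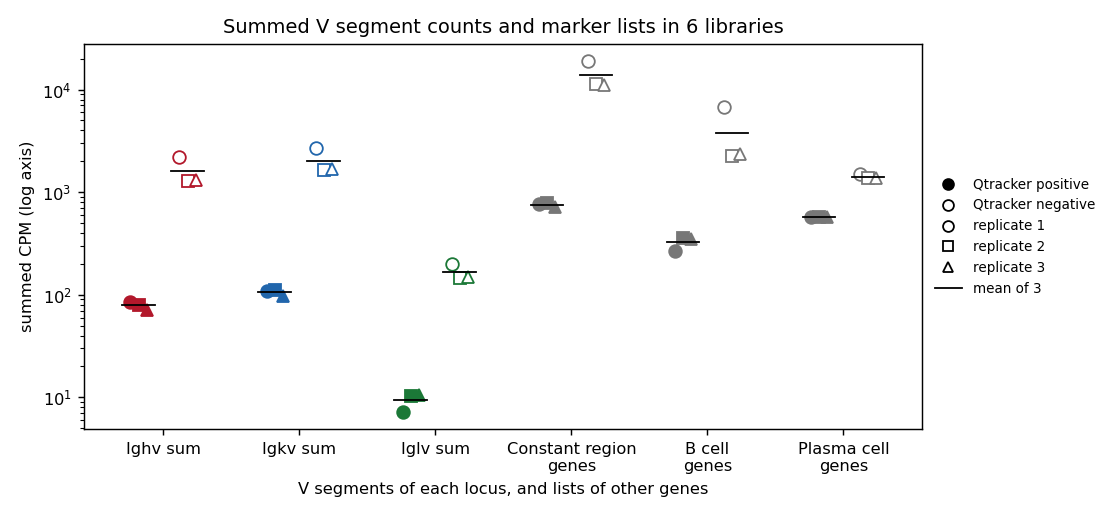
Summed CPM (log axis) of the V segments of each locus and of 3 lists of other genes, Qpos (filled) left of Qneg (open); marker shapes give the replicate and lines the mean of 3. Ighv, Igkv and Iglv lie at 70.8 to 85.5, 98.02 to 110.9 and 7.24 to 10.5 CPM in Qpos, below every Qneg library, while the plasma cell list, at 568.1 to 577.3 CPM in Qpos and 1369 to 1496 CPM in Qneg, is less far apart. Most of the plasma cell list sum in Qpos comes from Xbp1, Txndc5 and Edem2, which did not pass.

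Segment by segment, the difference was shared across the 3 loci. By edgeR's quasi-likelihood test, with the replicate number as block and Benjamini-Hochberg adjustment over 14804 genes, 152 of 172 members were lower in Qpos, 0 were higher and 20 did not pass an adjusted p of 0.05. Of all tested genes 34.4% were called, 16% lower (2376) and 18.3% higher (2710). On library totals alone, 3326 genes were lower and 1576 higher, and 153 members were lower. The members called lower were 73 of 83 Ighv, 76 of 86 Igkv and 3 of 3 Iglv. The median log2 fold change of the 172 members was -4.24 and that of all tested genes -0.01. The middle of the members was narrow, with the 10th percentile at -5.26 and the 90th at -3.61, and the medians were -4.37 for Ighv, -4.19 for Igkv and -3.97 for Iglv. The 3 Qpos libraries lay below the 3 Qneg libraries for 165 members (95.9%), against 29.1% of all tested genes. A log2 fold change under -3 was found for 168 members, against 8.52% of all tested genes.

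The count of calls rested on which replicates were used, while the sizes did not. Without replicate 1, 164 members were lower, where 35.8% of all tested genes were. Without replicate 2, 83 members were lower, where 1.21% of all tested genes were (179). Without replicate 3, 25 members were lower, where 0.324% of all tested genes were (48). The members' median log2 fold change in those fits was -4.01, -4.46 and -4.36. When replicates 2 and 3 of a group were added up as a single library, edgeR called 0 members, although 162 had an unadjusted p under 0.05 and the smallest adjusted p among them was 0.0513.

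**Figure D2:**
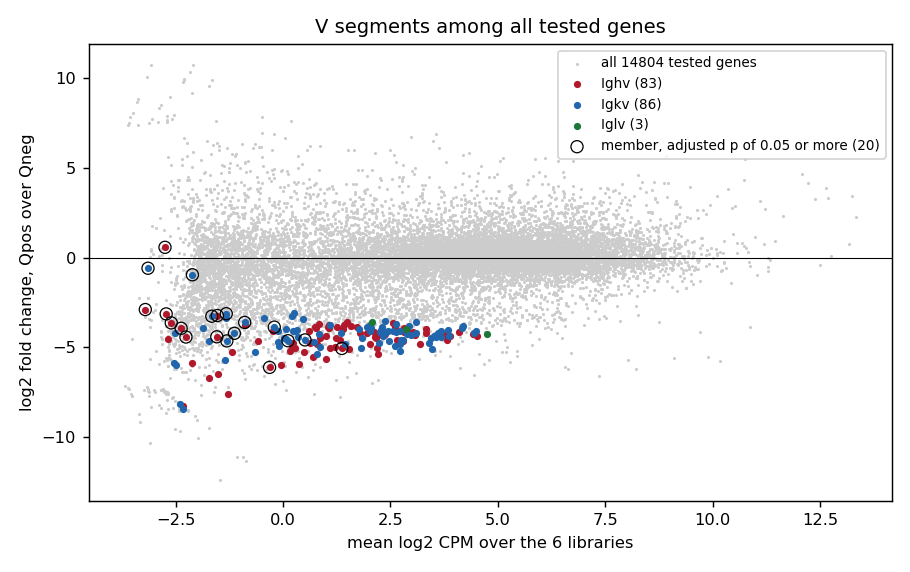
Log2 fold change of Qpos over Qneg against mean log2 CPM, with the 14804 tested genes in grey and the V segments coloured by locus; black rings mark the 20 members with an adjusted p of 0.05 or more. The members form a band around -4.24 that narrows toward higher counts, and the 3 members nearest to 0 are ringed.

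Among the members with at least 1000 summed counts, 110 of 112 were called lower, with log2 fold changes from -5.90 to -3.54. The 2 others, Ighv1-9 and Igkv8-21, are named here after their values were seen. Ighv1-9 had 0.951, 0 and 1.29 CPM in Qpos and 27.8, 16.2 and 10.995 CPM in Qneg, and Igkv8-21 had 0, 0.407 and 0.741 CPM in Qpos and 16.3, 5.39 and 5.93 CPM in Qneg. Each had 1 Qpos library at 0, and in neither did the groups overlap; the adjusted p-values by edgeR were 0.0604 and 0.0842.

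The heavy chain segments with the highest mean CPM were Ighv1-80, Ighv1-26, Ighv1-53, Ighv9-3, Ighv6-3, Ighv5-17, Ighv1-55 and Ighv5-4, and each of the 8 was called lower. Ighv1-80 had 13.5, 3.57 and 2.43 CPM in Qpos replicates 1, 2 and 3, against 305.7, 52.4 and 49.2 CPM in Qneg. It was highest in replicate 1 of both groups, and its log2 fold change was -4.24 ± 0.19 (SE; adjusted p = 0.00601 by edgeR). Ighv1-26 had 4.10, 5.75 and 5.31 CPM in Qpos, against 117.4, 103.4 and 95.2 CPM in Qneg, with little spread in either group. Its log2 fold change was -4.39 ± 0.22 (adjusted p = 0.00626 by edgeR). Of the 8, Ighv1-55 fell the most, to 2.27, 1.61 and 1.33 CPM in Qpos, against 67.0, 41.9 and 39.9 CPM in Qneg (log2 fold change -4.83 ± 0.13), and Ighv1-53 the least, at -4.17 ± 0.12.

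The kappa segments with the highest mean CPM were Igkv3-5, Igkv1-117, Igkv1-110, Igkv3-4, Igkv5-39, Igkv6-23, Igkv1-135 and Igkv6-15, also each called lower. Igkv3-5 had 15.5, 1.12 and 0.868 CPM in Qpos replicates 1, 2 and 3, against 325.5, 8.57 and 8.38 CPM in Qneg. It was the 1 segment of these 16 whose groups overlapped, since Qpos replicate 1 lay above Qneg replicates 2 and 3, and its log2 fold change within pairs was -3.56 ± 0.38 (adjusted p = 0.0128 by edgeR). Its near copy Igkv3-10 had 1.19, 0 and 0 CPM in Qpos and 8.24, 0 and 4.77 CPM in Qneg and was not called (adjusted p = 0.165 by edgeR). Igkv1-110 had 4.07, 6.81 and 5.63 CPM in Qpos, against 102.8, 89.4 and 86.9 CPM in Qneg. It varied little between replicates, and its log2 fold change was -4.10 ± 0.26. Igkv6-23 had the pattern opposite to Igkv3-5 across replicates, with 0.608, 3.69 and 2.75 CPM in Qpos and 28.2, 97.8 and 97.3 CPM in Qneg (log2 fold change -5.11 ± 0.23).

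Mice have few lambda V segments, and the 3 in the table were all lower. Iglv1 had 4.07, 7.68 and 7.24 CPM in Qpos, against 120.9, 115.9 and 116.5 CPM in Qneg, a log2 fold change of -4.26 ± 0.28. Iglv2 had 2.35, 1.41 and 1.78 CPM in Qpos, against 49.7, 19.8 and 23.2 CPM in Qneg (-3.97 ± 0.22). Iglv3 had 0.819, 1.26 and 1.48 CPM in Qpos, against 27.9, 10.3 and 10.6 CPM in Qneg (-3.60 ± 0.59). Iglv2 and Iglv3 were highest in Qneg replicate 1, which Iglv1 barely was. Iglv1 and Iglv2 share 96.9% of aligned bases.

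At the far end of the range, 3 members had no count in any Qpos library. Against a floor of 3 counts over the group, Igkv3-9 was at least 46.7-fold lower, with 141 counts in Qneg. Ighv11-1, with 114 counts in Qneg, was at least 37.8-fold lower, and Igkv4-78, with 108, at least 35.8-fold lower. Members with no Qpos counts met the summed count required of members through Qneg alone. That requirement and the floor therefore fixed a large fold for them in advance. Ighv11-1 is the near copy of Ighv11-2. Ighv1-56 had 2 counts in Qpos and 410 in Qneg, a ratio of 204 with an exact 95% interval of 56.1 to 1690 that covers counting error only. A further 7 members had 1 to 3 counts in Qpos. Like Ighv1-56, they met the required sum almost wholly through Qneg, so their large folds follow in part from it. With the members at 0 set to their bounds the median of the 172 stayed at -4.24. Members at 0 numbered 26, 15 and 21 in Qpos replicates 1, 2 and 3, against 3, 4 and 3 in Qneg.

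The 4 members with the highest log2 fold change were Ighv1-36, Igkv1-99, Igkv14-100 and Ighv5-15, and none was called. Their counts appeared in some libraries of a group and not in others. Igkv14-100 had 10, 0 and 25 counts in Qpos and 431, 0 and 0 in Qneg, and Ighv1-36 had 6, 10 and 0 in Qpos and 0, 0 and 112 in Qneg. Without replicate 1, Igkv14-100 was called higher in Qpos, at a log2 fold change of 6.63 that rests on the 25 counts of 1 library (adjusted p = 0.0183 by edgeR). Igkv1-99 had 22 counts in Qpos replicate 3 and 45 in Qneg replicate 2, with 0 in the other libraries. The 20 members that were not called had a median summed count of 185.5.

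Heavy chain families are sets of V segments of like sequence, and the 13 with members kept to a similar range. The largest, Ighv1, had 39 members, of which 35 were called lower, and its summed CPM was 42.7 ± 8.98 in Qpos and 859.8 ± 333.0 in Qneg (log2 difference -4.29). The smallest difference was that of Ighv10, at 2.85 ± 1.34 CPM in Qpos and 39.7 ± 2.74 CPM in Qneg (-3.93). The largest was that of Ighv11, at 0.729 ± 0.238 CPM in Qpos and 34.8 ± 25.5 CPM in Qneg (-5.36). Of the 16 kappa families, Igkv4 had 25 members, of which 20 were called lower, and summed to 16.1 ± 3.90 CPM in Qpos and 290.3 ± 4.75 CPM in Qneg (-4.20). The kappa families ranged from -4.69 for Igkv14 to -3.53 for Igkv17, which has 1 member. These family values are descriptions with no test of their own.

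Distance from the J segments, which orders V segments along each locus, went with little difference in fold change. The median log2 fold change was -4.25 for the 28 Ighv members nearest the J segments, -4.40 for the 28 in the middle and -4.37 for the 27 farthest away. For Igkv it was -4.38, -4.18 and -4.08 in groups of 29, 29 and 28 from near to far. The kappa locus holds segments in both orientations, and the 32 on the plus strand and the 54 on the minus strand both had a median of -4.19.

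**Figure D3:**
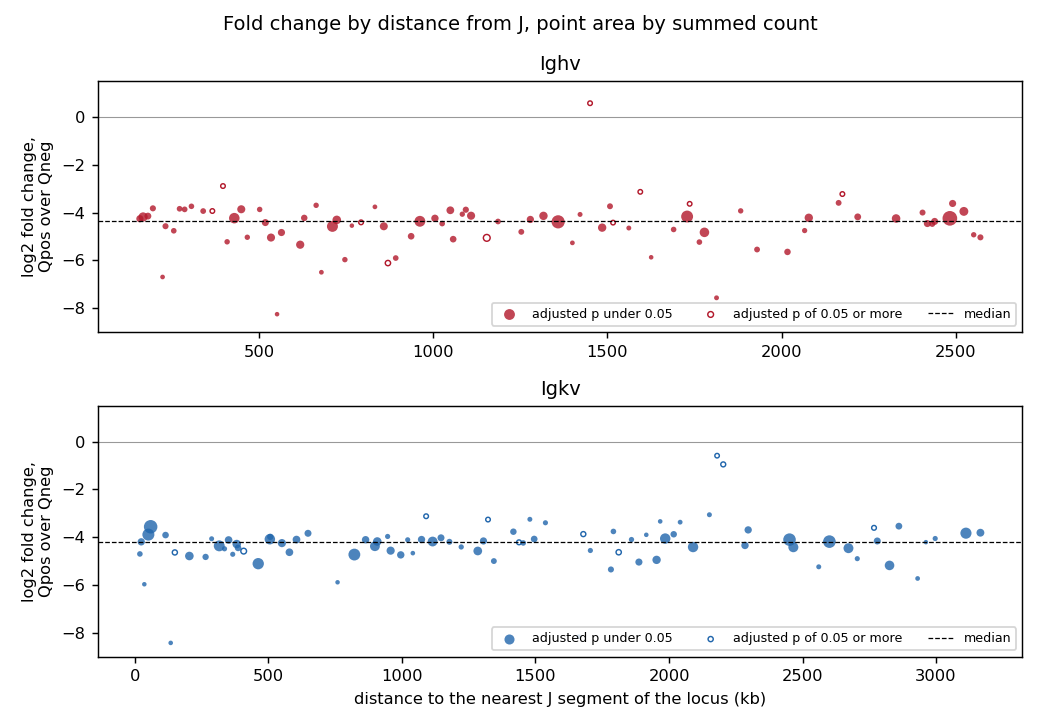
Log2 fold change of Qpos over Qneg of each Ighv and Igkv member against its distance to the nearest J segment in kb, with point area by summed count and open points for an adjusted p of 0.05 or more. Across up to 2570.2 kb for Ighv and 3166.3 kb for Igkv the points stay around the dashed medians of -4.37 and -4.19.

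Usage, the share of each segment in the V count of its own locus and library, asks a different question from level, since it does not move when a whole locus is lower. Usage differed more between replicate 1 and the other replicates than between Qpos and Qneg. Per kb of annotated transcript, Ighv1-80 led replicate 1 with 16.4% of Ighv in Qpos and 14.6% in Qneg, followed in both by Ighv1-53 with 11.1% and 7.30%. In replicates 2 and 3 Ighv1-26 led, with 7.61% and 7.91% in Qpos and 8.42% and 7.68% in Qneg.

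The kappa locus showed the same division. Igkv3-5 led replicate 1 per kb, with 13.9% in Qpos and 11.6% in Qneg. By counts its share was 14.3% in Qpos replicate 1 (586 counts, Wilson 95% interval 13.3% to 15.4%), and 1.01% and 0.885% in Qpos replicates 2 and 3. In Qneg it was 12.02% in replicate 1 (11.8% to 12.2%), and 0.521% and 0.493% in replicates 2 and 3. The intervals cover counting error only. Igkv3-4 and Igkv5-39 took the next 2 places in replicate 1 of both groups, in opposite order. In replicates 2 and 3 the leading kappa segments per kb were Igkv1-117 and Igkv1-135 in Qpos, and Igkv6-23 in both Qneg libraries.

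**Figure D4:**
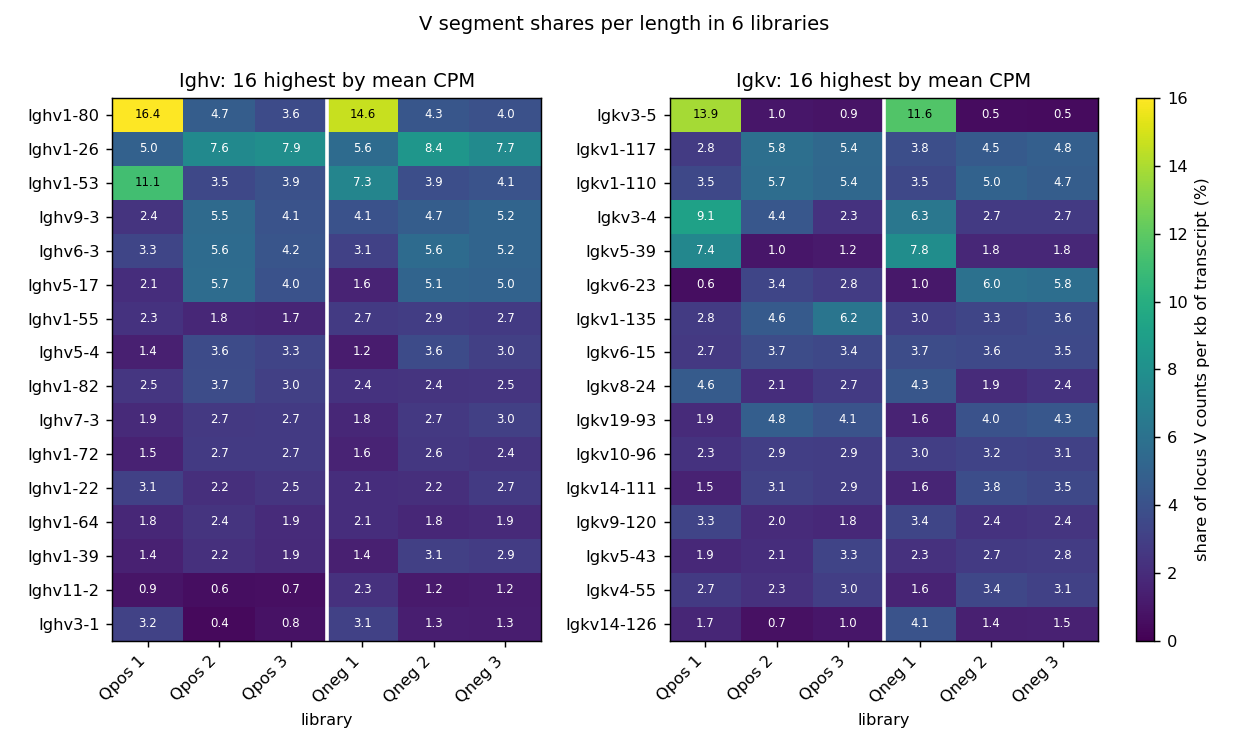
Share of each segment in the locus V counts per kb of transcript, in percent, for the 16 Ighv and 16 Igkv members with the highest mean CPM, with Qpos libraries left of the white line and Qneg libraries right of it. Ighv1-80, at 16.4% and 14.6%, and Igkv3-5, at 13.9% and 11.6%, are bright in replicate 1 of both groups and dark in the other libraries.

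The distance between usage profiles put numbers on this. The Bray-Curtis distance is the share of counts that would have to change segment to turn one profile into the other. For Ighv, Qpos and Qneg libraries of the same number were 14.4%, 13.8% and 16.1% apart in replicates 1, 2 and 3. A Qpos library was 29.0% to 30.6% from a Qneg library where one of them was replicate 1 and the other was not. Across replicates 2 and 3, Qpos and Qneg libraries were 14.2% and 16.01% apart, as close as those of the same number. For Igkv the same-number distances were 15.2%, 16.01% and 13.2%, those between replicate 1 and the others 31.4% to 35.7%, and those across replicates 2 and 3 14.6% and 14.7%. Usage thus set replicate 1 apart and did not separate replicate 2 from replicate 3. Within Qpos, replicates 2 and 3 were 16.96% apart for Ighv and 13.7% for Igkv, about as far as Qpos from Qneg. Within Qneg, which has far more V counts, they were 5.34% apart for Ighv and 4.33% for Igkv, and the Qneg counts still differed beyond counting noise, with a chi-square of 8.05 and 8.59 per degree of freedom.

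Across the segments of a locus, which share a library and its depth, Pearson's r of usage between same-numbered Qpos and Qneg libraries was 0.931 to 0.964 for 83 Ighv members and 0.908 to 0.956 for 86 Igkv members. Between replicate 1 of one group and replicates 2 and 3 of the other it was 0.598 to 0.630 for Ighv and 0.345 to 0.481 for Igkv. These correlations describe the libraries and carry no test.

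**Figure D5:**
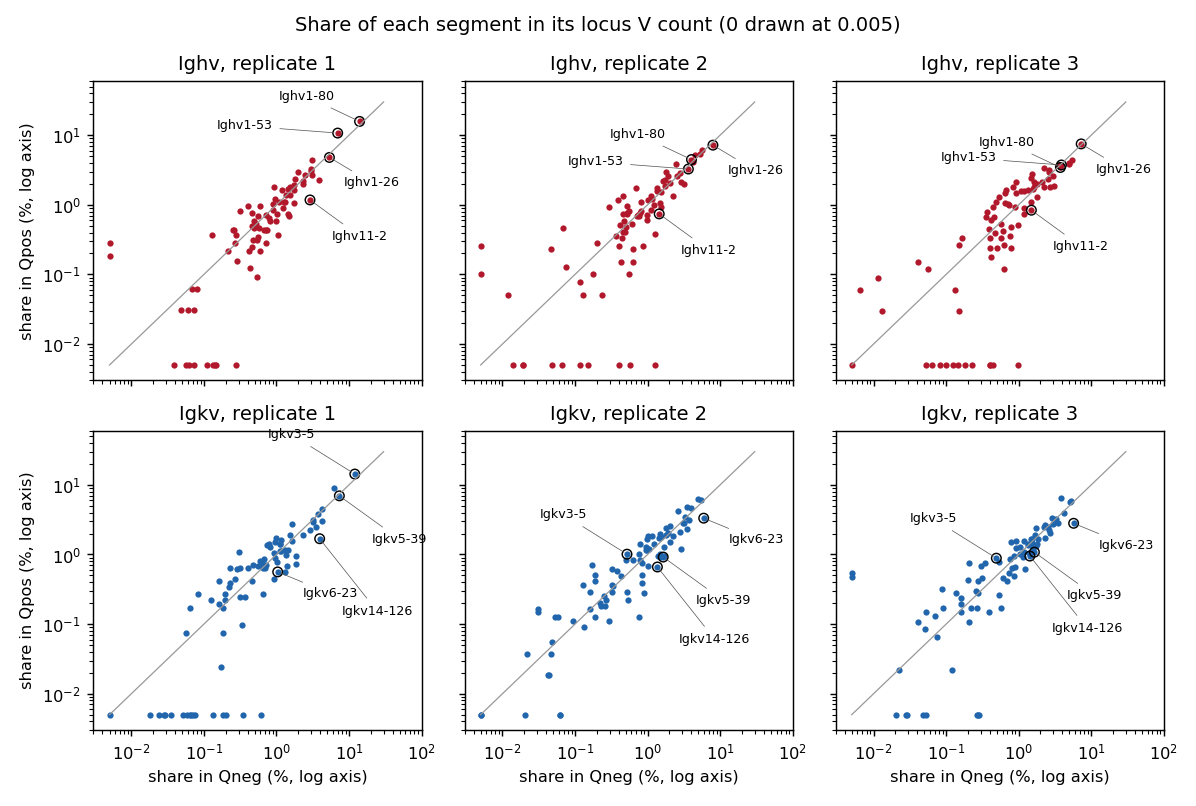
Share of each Ighv (top) and Igkv (bottom) member in its locus V count, Qpos on the vertical and Qneg on the horizontal log axis in percent, one panel per replicate, with shares of 0 drawn at 0.005 and the line of equal shares in grey. Most members lie near the line, and Ighv11-2, Igkv14-126 and Igkv6-23 lie below it in each of the 3 panels of their locus.

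Breadth of usage also set replicate 1 apart. The inverse Simpson number, the count of equally used segments that would give the same evenness, was 19.6, 33.1 and 36.9 for Ighv in Qpos replicates 1, 2 and 3, against 24.9, 34.5 and 36.0 in Qneg. For Igkv it was 21.6, 37.0 and 37.5 in Qpos, against 25.4, 38.2 and 38.8 in Qneg. The groups overlapped at both loci. The mean difference was -1.95 for Ighv (exact two-sided permutation p = 0.7) and -2.13 for Igkv (p = 0.5, exact permutation). The share of the leading segment differed by 0.410 percentage points for Ighv (p = 0.9, exact permutation) and 1.16 for Igkv (p = 0.5, exact permutation). These permutations ignored the replicate pairs, and replicate 1 lay apart in both groups. In each of the 3 pairs, Igkv breadth was lower and its leading share higher in Qpos. Exact permutation by sign flips of the 3 pairs gave p = 0.25 for both, the smallest value possible. For Ighv, exact permutation by sign flips gave p = 0.5 for breadth and p = 0.75 for the leading share. Iglv1 made up 56.2%, 74.2% and 69.0% of Iglv counts in Qpos, against 60.9%, 79.4% and 77.5% in Qneg. It was lower in Qpos in each pair, by a mean of 6.14 points. Exact permutation gave p = 0.5, and exact permutation by sign flips of the pairs gave p = 0.25. Replicate 1 was lowest in both groups.

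Within a locus, 4 of the 172 members were called with a smaller share in Qpos than in Qneg, and 0 with a larger one, by edgeR with the V total of the locus as offset. That is 2.33% of the members, where the same fit called 32.8% of all tested genes, and 16 members had an unadjusted p under 0.05. Because the adjustment runs over the whole table, in which many genes change in level, it is lenient for these 172. The 4 were Igkv6-23, Ighv11-2, Igkv14-126 and Ighv1-61, with unadjusted p-values from 0.00154 to 0.0102 by edgeR. Their calls depend on that whole-table adjustment. No adjustment over the 172 alone was made, and with p-values of this size none of the 4 could pass one by Benjamini-Hochberg.

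Ighv11-2 and Igkv14-126 are known as the heavy and light chain segments of an antibody against phosphatidylcholine that is common among mouse B-1 cells. Ighv11-2 made up 1.18%, 0.740% and 0.837% of Ighv counts in Qpos replicates 1, 2 and 3, against 2.90%, 1.45% and 1.498% in Qneg. The shares of the 2 groups did not overlap, and the log2 change in usage was -1.05 ± 0.16 (SE; adjusted p = 0.0219 by edgeR). Igkv14-126 made up 1.69%, 0.661% and 0.950% of Igkv counts in Qpos, against 3.94%, 1.37% and 1.43% in Qneg. Its groups overlapped through Qpos replicate 1, and within pairs the log2 change was -0.97 ± 0.18 (adjusted p = 0.0302 by edgeR). Both segments had their highest share in Qneg replicate 1. Behind the Qpos shares stood 38, 29 and 28 counts for Ighv11-2 and 69, 36 and 44 for Igkv14-126.

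Igkv6-23 made up 0.562%, 3.33% and 2.81% of Igkv counts in Qpos, against 1.04%, 5.94% and 5.73% in Qneg. It was low in replicate 1 of both groups and lower in Qpos in each pair, with a log2 change of -0.93 ± 0.11 (adjusted p = 0.0166 by edgeR). Ighv1-61 made up 0.216%, 0.255% and 0.359% of Ighv counts in Qpos, against 0.419%, 0.855% and 0.769% in Qneg, without overlap (-1.28 ± 0.27, adjusted p = 0.0381 by edgeR). Its Qpos shares rest on only 7, 10 and 12 counts, and 27.4% of its 31-base words were unique to it. The 2 next by p, Igkv17-127 at 0.67 ± 0.17 and Ighv1-81 at 0.67 ± 0.18, had larger shares in Qpos and adjusted p-values of 0.0521 and 0.0598 by edgeR. Without the replicate block, 3 of the 4 calls were lost: edgeR's adjusted p was 0.413 for Igkv6-23, 0.177 for Igkv14-126 and 0.0519 for Ighv11-2, and 0.0389 for Ighv1-61. None of the 4 calls held without replicate 2 or without replicate 3, where edgeR called 0 of all 14804 genes in the usage fit (4339 and 4101 with an unadjusted p under 0.05). The log2 changes stayed near their size, at -0.98 and -0.87 for Igkv6-23 and at -1.08 and -1.14 for Ighv11-2. Without replicate 1, 61 members were called, 33 with a smaller share in Qpos and 28 with a larger one. That is 35.5% of the members, where the same fit called 72.1% of all tested genes.

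The ratio of V counts to constant region counts varied less between libraries for Ighv and Igkv than for Iglv. Of 12 constant region genes listed, 9 were in the table, which lacked Ighd, Iglc1 and Iglc3. Of these, 8 were tested and all 8 were lower in Qpos. Ighv counts came to 15.3%, 13.8% and 13.6% of the counts of the heavy chain constant genes in Qpos, against 15.7%, 15.6% and 16.1% in Qneg. The Ighv ratio was lower in Qpos in each pair, and the groups did not overlap. Igkv counts came to 52.2%, 56.5% and 52.5% of Igkc counts in Qpos, against 57.3%, 53.3% and 56.9% in Qneg. For lambda, only Iglc2 was available, so that ratio leaves out the other lambda constant regions. Iglv counts came to 141.2%, 232.0% and 304.3% of Iglc2 counts in Qpos, against 195.2%, 460.1% and 424.9% in Qneg. The lambda ratio was lower in Qpos in each pair, though the groups overlapped. These shares are not per length, are set only between libraries and carry no test. Igha, the constant region of IgA, had 21.2, 47.5 and 47.4 CPM in Qpos, against 1091, 2612 and 2432 CPM in Qneg, a log2 fold change of -5.72 ± 0.20. Ighm, the constant region of IgM, had 512.2, 515.6 and 456.0 CPM in Qpos, against 12370, 5387 and 5375 CPM in Qneg (-3.84 ± 0.40).

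B cell markers were also lower, and they stood at a different ratio to the V counts in each replicate. Of the list of 12, 10 were called lower, 0 higher, and none was at 0 in a Qpos library. Their summed level was 269.1, 354.4 and 351.0 CPM in Qpos, against 6764, 2258 and 2355 CPM in Qneg, which is a log2 difference of -4.65 in pair 1 and of -2.67 and -2.75 in pairs 2 and 3. V segments differed by -4.68, -4.02 and -4.21 (Ighv) in the same pairs. The V sum was 0.747, 0.568 and 0.511 times the B cell marker sum in Qpos, against 0.752, 1.37 and 1.34 times in Qneg, so the groups differed in this ratio in replicates 2 and 3 and hardly in replicate 1. Their part in the V segment result was not tested.

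Of 12 plasma cell markers, 6 were lower in Qpos and 0 higher. Jchain, which links antibody polymers, had 13.5, 23.8 and 21.7 CPM in Qpos, against 306.5, 516.5 and 500.0 CPM in Qneg (log2 fold change -4.49 ± 0.14, adjusted p = 0.00601 by edgeR). Like Igha, and unlike the B cell markers, it was lower in replicate 1 than in replicates 2 and 3 of either group. This was not the pattern of the plasma cell list. Mzb1, Irf4, Pou2af1 and Fkbp11, also called lower, were highest in replicate 1 within Qneg. There Mzb1 had 205.9, 84.2 and 91.7 CPM and Irf4 120.7, 58.6 and 60.8 CPM in replicates 1, 2 and 3. Tnfrsf17, called lower near the floor, was lowest in replicate 1 of Qneg, at 0.252, 0.694 and 0.430 CPM. Derl3, a factor of protein disposal at the endoplasmic reticulum, and Tnfrsf17, the survival receptor BCMA, each had 1 or more Qpos libraries at 0. Xbp1, a secretory regulator that macrophages express too, had 213.5, 197.0 and 207.3 CPM in Qpos, against 163.4, 267.5 and 258.7 CPM in Qneg, and did not pass (adjusted p = 0.678 by edgeR). Edem2, which also acts in disposal of misfolded proteins, had 116.7, 117.7 and 115.2 CPM in Qpos, against 69.2, 88.1 and 91.7 CPM in Qneg, without overlap (0.50 ± 0.14, adjusted p = 0.063 by edgeR). Prdm1, a regulator of plasma cell differentiation that other immune cells express too, had 10.97, 32.6 and 34.2 CPM in Qpos, against 11.9, 17.8 and 16 CPM in Qneg (0.62 ± 0.29, adjusted p = 0.173 by edgeR). The V sum was 0.354, 0.350 and 0.311 times the plasma cell list sum in Qpos, against 3.40, 2.25 and 2.31 times in Qneg. Most of the list sum in Qpos came from Xbp1, Edem2 and Txndc5, none of which passed. Txndc5 had 178.8, 144.5 and 143.0 CPM in Qpos, against 280.4, 168.4 and 170.1 CPM in Qneg (adjusted p = 0.13 by edgeR). The ratio to the list sum therefore largely follows these genes and is no measure of plasma cells. The part of plasma cell genes in the V segment result was not tested.

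The other lists with a bearing on V segments held few genes. Of 3 octamer factors, which bind V promoters, the coactivator Pou2af1 was lower at -3.29 ± 0.63, while Pou2f2 at -1.30 ± 0.58 and Pou2f1 at -0.91 ± 0.30 did not pass (adjusted p = 0.157 and 0.0872 by edgeR). Among genes of V(D)J recombination, Dntt, which adds bases at V junctions, was lower at -3.71 ± 0.44. It was near the floor, at 0.0528, 0.0815 and 0.0423 CPM in Qpos and 0.664, 0.940 and 0.773 CPM in Qneg, so its fold rests on few counts. Vpreb3, a B lineage chaperone related to the surrogate light chain, was lower at -3.07 ± 0.57. The receptor partners Cd79a and Cd79b were lower at -3.51 ± 0.48 and -3.41 ± 0.53.

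Outside the immunoglobulin loci, the genes whose log2 CPM ran closest to the summed Ighv level over the 6 libraries, among 8930 genes with a mean log2 CPM of at least 3, were Susd1 (Pearson's r = 0.9999), Akna (0.9997), Rbm38 (0.9995), Tmc6 (0.9994) and Ezr (0.9992). For Igkv they included Susd1, Rbm38, Akna and Unkl. Such values mostly describe 2 groups of 3 libraries, and the differences were far smaller than those of V segments, as with Susd1 at 22.1, 22.0 and 20.6 CPM in Qpos and 101.4, 81.1 and 80.2 CPM in Qneg.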

How the data were processed

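The 172 members and the gene lists were chosen with earlier results of these data known. The deposited table of estimated counts per gene, whole numbers for 6 libraries, was the main input. Salmon and FastQC, without versions, and mm10 as the build are listed in the submitters' processing notes. The annotation release and whether counting used strand are not given in the sources used here, though per the labels the library kit was stranded. In the authors' normalized table each value is a signal, the count times a gene- and library-specific factor of unstated origin, and it served only as an alternative. It was used as log2(value + 1).

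Symbols, positions and transcript sequences came from GENCODE M21, which matched 21625 identifiers and filled 5210 of 5429 blank symbols. Genes with a summed count of at least 60 (14804) were tested with edgeR 4.0.16 in R 4.3.3, with TMM scaling, a quasi-likelihood F test, replicate number as a block and Benjamini-Hochberg adjustment, at an adjusted p of 0.05. Standard errors were derived from F. The usage fit replaced the library size of V segments by the V total of their locus. Log2 CPM used a prior count of 2. For members at 0 in all Qpos libraries, folds are bounds against 3 counts over the group. The block follows the series' design text, which calls the triplicates paired. After subtraction of group means, the same-numbered libraries of pairs 1, 2 and 3 correlated across genes at 0.21, 0.0839 and 0.156. Crossed numbers 2 and 3 correlated at 0.127 (Qpos 2 with Qneg 3) and 0.152 (Qpos 3 with Qneg 2), so the data alone do not tell pair 2 from pair 3. Over the 172 members the 3 pairs had 0.322, 0.208 and -0.179, and the crossed numbers 0.236 and 0.26. The steps were tested on simulated data. Single values per library were compared by exact permutation, two-sided.

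Named members were the 8 Ighv and 8 Igkv with the highest mean CPM and all Iglv, segments among the 3 largest shares of a library, the 4 lowest and 4 highest fold changes, the 6 lowest p for usage and those next to the sum of 60. Some of them appear here in counts only, and 1 gene of the fixed lists and 1 named for its likeness to Igkv are not reported here. Alternatives were other scalings, filters and sums, DESeq2 1.42.0, limma 3.58.1 on the normalized table, leaving out the block or a replicate, and adding up replicates 2 and 3. Promoters and proteins of V segments were not used here. Depth was 33943090 to 55506993 counts, and the counts behind single Qpos segments limit their precision.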

Additional observations from a re-analysis of the deposited data

How the results depend on the processing

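The summed V levels of the 3 loci stayed between -4.65 and -3.83 on the log2 scale under each scaling, sum and left-out replicate tried, and the sign-flip test on the replicate block gave p = 0.25, the smallest that 3 pairs allow (exact, two-sided). Members lower in Qpos numbered 158 without the replicate block, 166 by DESeq2, 157 by limma on the normalized table, 141 of 150 at a summed count of at least 200 and 149 of 188 at 20, against 152 as reported. Of all 14804 tested genes, 2985 were lower without the block, 3691 by DESeq2 and 2487 by limma, against 2376 as reported. At a summed count of at least 20, 2208 of 16900 genes were lower. They ranged from 25 to 164, and members higher from 0 to 1, with a replicate left out, and with replicates 2 and 3 summed 0 were called (edgeR; 162 with an unadjusted p under 0.05). Over all tested genes, those lower ranged from 48 to 5294 and those higher from 33 to 5493 with a replicate left out, 0 and 0 with replicates 2 and 3 summed (4373 with an unadjusted p under 0.05), 3691 were lower by DESeq2, and 1576 were higher on library totals alone, which moved the median of all genes to -0.36 and that of the members to -4.60. Upper quartile factors moved the median of all genes to -0.155 and left 152 members lower, where 2611 of all tested genes were. Changes of usage numbered 7 without the replicate block, which kept 1 of the 4 calls, and 0 to 61 with a replicate left out (edgeR; 7 and 5 members with an unadjusted p under 0.05 without replicate 2 and without replicate 3). Of all 14804 tested genes, the usage fit without the block called 2802 lower and 2852 higher in Qpos. Shares summed by family brought the mean usage distances to 5.77%, 15.1% and 5.35% for Ighv (same number, replicate 1 with the others, replicates 2 and 3) and to 7.73%, 23.4% and 6.93% for Igkv, and a summed count of at least 200 brought the segment-level Igkv distance across replicates 2 and 3 to 14.4%, against 14.6% as reported. The difference in leading Ighv share reversed to -0.273 points without replicate 1, within a range of -0.273 to 1.00. Also without replicate 1, Igkv14-100 reversed to 6.63 (range with a replicate left out -5.07 to 6.63) and the marker genes Itgam and Mmp8 to -0.29 (-0.29 to 1.56) and -0.31 (-0.31 to 1.54). Breadth from counts per kb, chosen after seeing the data, differed by -1.84 for Ighv and -1.76 for Igkv. The cause of these changes was not tested.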

Other observations

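A further heavy and light chain pair known from antibodies of mouse B-1 cells against phosphatidylcholine, Ighv12-3 and Igkv4-91, was looked at after its values were seen. Ighv12-3 made up 1.05%, 0.408% and 0.269% of Ighv counts in Qpos replicates 1, 2 and 3, against 1.72%, 0.457% and 0.621% in Qneg. Igkv4-91 made up 0.733%, 1.03% and 1.32% of Igkv counts in Qpos, against 1.87%, 1.48% and 1.75% in Qneg. Both shares were lower in Qpos in each pair, and the shares of Igkv4-91 did not overlap between the groups. The log2 changes of usage were -0.68 for Ighv12-3 and -0.76 for Igkv4-91, with adjusted p-values of 0.122 and 0.0844 by edgeR, so neither passed. Both segments were lower in level, at log2 fold changes of -4.99 ± 0.37 and -4.95 ± 0.44 (adjusted p = 0.00859 and 0.0104 by edgeR). The counts in Qpos were 34, 16 and 9 for Ighv12-3 and 30, 56 and 61 for Igkv4-91.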
